A study of Rattus norvegicus with 6 samples.

Results

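Genes of Wnt and beta-catenin signalling were examined in islets of 3-month-old and 12-month-old rats. The list was chosen by name and by role in the pathway and holds 10 genes: the ligands *Wnt4* and *Wnt5a*, the co-receptors *Lrp5* and *Lrp6*, *Apc*, *Gsk3b* and *Axin2* of the destruction complex, *Ctnnb1*, which codes for beta-catenin, and the transcription factors *Tcf7l2* and *Lef1*. Of these 10 genes, 7 had a probe matched by accession, out of 13903 genes with a matched probe on the array, and 6 could be tested for a difference between the ages. *Lrp5*, *Lrp6* and *Tcf7l2* were not analysed here.

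The islets, small groups of endocrine cells scattered through the pancreas, came from male Wistar rats aged 3 months (3 arrays) or 12 months (3 arrays), without further treatment named in the labels. They were freed with collagenase, and total RNA was purified with the miRNeasy kit, labelled with Cy3 and hybridised to 1-colour arrays. RNA of 3 rats of each age was used according to the supplement, as many rats as arrays, although the labels do not tie an array to an animal.

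In the canonical Wnt pathway, a secreted Wnt protein binds a Frizzled receptor together with LRP5 or LRP6. Without this signal, a complex of Axin, APC, casein kinase 1 and GSK3-beta marks beta-catenin for degradation, and with it beta-catenin accumulates, enters the nucleus and activates genes together with TCF and LEF factors. In the adult pancreas the pathway is best known through *TCF7L2*, the gene at which common human variants are associated with type 2 diabetes, and *Axin2* and *Lef1* are classical targets of the pathway as well as parts of it.

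Since *Axin2* and *Lef1* are read both as components and as targets, the 250 bases before the annotated start of each are shown, on the plus strand, 5′ to 3′, as RefSeq gives them for assembly GRCr8. They span chr10:94398535-94398784 for *Axin2* and chr2:222340463-222340712 for *Lef1*. Capitals mark CTTTG, the core of the sequence that TCF and LEF factors recognise, or its extended form CTTTGAT, which contains the core, searched on both strands.
Axin2: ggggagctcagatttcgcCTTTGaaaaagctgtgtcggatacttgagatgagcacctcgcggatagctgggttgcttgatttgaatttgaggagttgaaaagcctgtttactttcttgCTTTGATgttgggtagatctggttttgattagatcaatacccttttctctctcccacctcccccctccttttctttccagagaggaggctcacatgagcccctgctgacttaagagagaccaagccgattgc
Lef1: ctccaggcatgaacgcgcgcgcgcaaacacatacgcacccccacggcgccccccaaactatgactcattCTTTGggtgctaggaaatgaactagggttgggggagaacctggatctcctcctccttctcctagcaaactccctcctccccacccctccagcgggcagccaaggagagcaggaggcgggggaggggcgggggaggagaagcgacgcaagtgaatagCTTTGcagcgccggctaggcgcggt
The *Axin2* stretch holds the extended form from 132 to 126 bases before the start and another core match from 232 to 228 bases before it. The *Lef1* stretch holds the core from 181 to 177 and from 25 to 21 bases before the start. Of the 8 listed genes with an entry in the promoter table, 5 held the core, which 48.2% of all 33469 rat promoter stretches of this length also held. The extended form was found in 1 of the 8, in *Axin2*, and in 3.15% of all stretches. A match describes the letters only and is not a site of binding. The stretches lie before the start in the annotation, and whether islets use these starts was not tested. GC made up 47.6% of the *Axin2* stretch and 63.2% of the *Lef1* stretch, beside a median of 51.2% over all stretches.

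The arrays of the ages were read in 2 scans, none of which held both ages, and effects of scan and of age cannot be told apart. Between 73.1% and 77.5% of the probes were well above background on the 3-month arrays and between 59.5% and 64.2% on the 12-month arrays. Negative control spots had a median signal of 29.5 to 31.0 scanner units at 3 months and 89.5 to 91.0 at 12 months. The part of this background difference in the values of dim genes was not tested. *Ins1* and *Ins2* (insulin), *Gcg* (glucagon) and *Sst* (somatostatin) were well above background on all arrays, and so were 9 of 9 tested markers of acinar cells, the enzyme-producing cells of the exocrine pancreas.

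None of the Wnt and beta-catenin genes tested passed an adjusted p of 0.05 in either direction (0 of 6, limma with Benjamini-Hochberg adjustment over all probes), where 4.87% of the 11201 genes tested were called higher and 2.98% lower at 12 months. The study itself used a looser threshold, more than 2-fold at an unadjusted p under 0.05, and there the count was also 0, against 9.8% of all genes higher and 9.67% lower. At an unadjusted p under 0.05 alone, 1 of the 6 was counted, *Gsk3b*, which was lower, as 17% of all genes were at that threshold, while 13.6% were higher. By sign, 2 of the 6 genes were higher and 4 lower at 12 months, and their median difference was -0.49 on the log2 scale, beside -0.13 for all genes tested. Changes are given as 12 months minus 3 months on the log2 scale of the quantile-normalised signal, and each of the 7 genes was read by 1 probe on 1 spot.

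**Figure D1:**
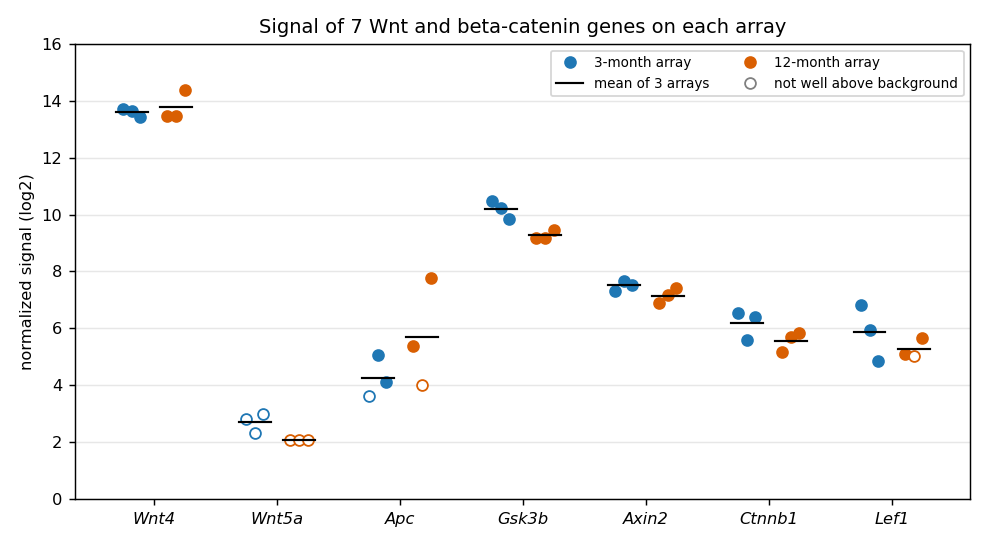
Normalised log2 signal (vertical axis) of the 7 Wnt and beta-catenin genes with a probe (horizontal axis) on each of the 3 arrays at 3 months (blue) and at 12 months (orange), with the mean as a line and open points where the probe was not well above background. *Gsk3b* is the gene with above-background signal whose ages do not overlap, between 9.85 and 10.49 at 3 months and between 9.16 and 9.47 at 12 months.

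Of the ligands, *Wnt4* was well above background on all arrays. WNT4 is a secreted Wnt protein known for its part in the development of the kidney and the gonads. Its log2 signal was 13.70, 13.64 and 13.43 on the 3-month arrays and 13.47, 13.45 and 14.40 on the 12-month arrays. The ages overlapped, and 12-month replicate 3 stood above the other 5 arrays. The difference of 0.18 (limma SE 0.32, 95% confidence interval -0.59 to 0.95, adjusted p 0.715) was smaller than the spread between arrays, and without that replicate it was -0.13. The sign also turned with another scaling of the arrays, a shift to a common 75th percentile (-0.14). That shift moved the median of all genes from -0.13 to -0.34, and relative to this median *Wnt4* was at 0.31 here and at 0.19 with the shift.

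*Wnt5a*, which codes for a ligand mostly known for signalling that does not pass through beta-catenin, was well above background on 0 of the 6 arrays. Its signal was 2.82, 2.33 and 2.99 at 3 months and 2.06, 2.07 and 2.07 at 12 months, on the log2 scale. These are values at the lower end of the scale, they did not enter the test, and no fold is given for them.

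Among the genes of the destruction complex, *Gsk3b* came closest to the adjusted threshold. It codes for glycogen synthase kinase 3 beta, which phosphorylates beta-catenin for degradation and also acts in insulin signalling. Its log2 signal was 10.49, 10.24 and 9.85 at 3 months and 9.16, 9.19 and 9.47 at 12 months, well above background throughout. Every 12-month array was below every 3-month array. The mean was 10.19 ± 0.33 at 3 months and 9.27 ± 0.17 at 12 months (SD, n = 3), a difference of -0.92 (limma SE 0.26, 95% confidence interval -1.54 to -0.30) or a 1.89-fold lower signal. The unadjusted limma p was 0.0104 and the adjusted p 0.0730, above the threshold of 0.05. An exact two-sided permutation test over the 6 arrays gave p = 0.1, the smallest that 3 arrays against 3 allow. Of the 6 genes tested 1 did not overlap between the ages, lower at 12 months, while among all genes 22.2% did not overlap and were lower and 17.1% did not overlap and were higher. The difference lay between -1.19 and -0.77 over 19 other settings, of which 2 brought the adjusted p under 0.05: normexp background correction (0.0411) and array weights (0.0156). These settings called 4.57% and 16.3% of all genes lower, in the same order, where the main fit called 2.98%. The array weights also stopped before converging. The related kinase gene *Gsk3a*, named after its values were seen, differed by -0.46 (limma SE 0.23, adjusted p 0.204).

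*Apc* codes for the tumour suppressor that serves as a scaffold of the complex. Its signal was dim, and its probe was well above background on 2 of 3 arrays at each age. The values were 3.61, 5.05 and 4.12 at 3 months and 5.37, 4.0 and 7.77 at 12 months. The 12-month arrays spread over a wider range than the 3-month arrays and enclosed 2 of their values. The difference of 1.45 (limma SE 0.93, 95% confidence interval -0.75 to 3.66, adjusted p 0.307) was the largest in size of the 6 genes tested and also the least certain, and it ran from 0.10 to 2.31 over 18 other settings.

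*Axin2*, a scaffold that limits the pathway and whose own transcription the pathway drives, had values of 7.32, 7.67 and 7.53 at 3 months and 6.88, 7.17 and 7.41 at 12 months. The highest 12-month array lay above the lowest 3-month array. The difference was -0.36 (limma SE 0.25, 95% confidence interval -0.95 to 0.24, adjusted p 0.350), negative in 19 of 19 other settings and past the adjusted threshold in 0 of them. The stretch before its annotated start, shown above, holds the extended TCF and LEF sequence.

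*Ctnnb1*, the gene of beta-catenin itself, had values of 6.55, 5.60 and 6.40 at 3 months and 5.18, 5.68 and 5.83 at 12 months. Its signal was dim, although well above background on all arrays. The ages overlapped through 3-month replicate 2, which fell within the range of the 12-month arrays. The difference was -0.62 (limma SE 0.34, 95% confidence interval -1.43 to 0.19, adjusted p 0.246), and it was -0.31 with normexp background correction. Arrays measure the transcript, whereas beta-catenin is controlled mainly through the stability of the protein, which was not measured.

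Of the transcription factors, *Lef1* was well above background on 3 arrays at 3 months and on 2 at 12 months. Its values were 6.82, 5.93 and 4.87 at 3 months and 5.08, 5.04 and 5.65 at 12 months. The 3-month arrays enclosed all 3 of the 12-month values. The difference was -0.62 (limma SE 0.50, 95% confidence interval -1.81 to 0.58, adjusted p 0.415). The exact permutation p over the 6 arrays was 0.8 for *Wnt4*, 0.3 for *Apc*, 0.2 for *Axin2*, 0.3 for *Ctnnb1* and 0.4 for *Lef1*.

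**Figure D2:**
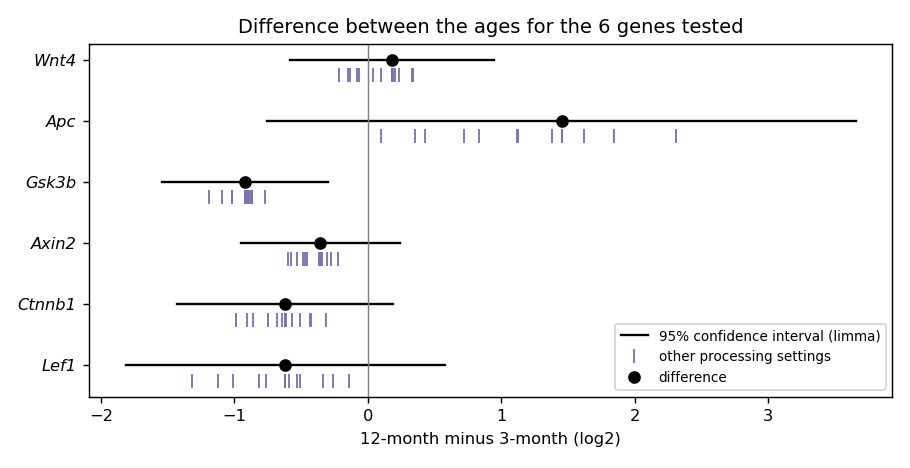
Difference between 12 and 3 months on the log2 scale (horizontal axis) for the 6 genes tested (vertical axis), with the limma estimate as a point, its 95% confidence interval as a line and the estimates under other processing settings as purple ticks below. The interval of *Gsk3b*, -1.54 to -0.30, is the one of the 6 that leaves out 0, before any adjustment for the number of genes, and the ticks of *Wnt4* lie on both sides of 0.

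The rest of the pathway was read from a list of 125 other genes, of which 95 had a probe and 81 could be tested. At an adjusted p under 0.05, 5 of the 81 rose (6.17%, beside 4.87% of all genes tested) and 0 fell. The count of 5 was 1 without 12-month replicate 1, 12-month replicate 3 or 3-month replicate 1 and 3 without 3-month replicate 3. Of all genes, 0.911%, 1.17%, 1.3% and 1.89% were called higher in these fits, in the same order. At an unadjusted limma p under 0.05, 16 were higher and 11 lower, beside 13.6% of all genes higher and 17% lower. At the threshold of the study 14 were higher (17.3%) and 8 lower (9.88%), beside 9.8% and 9.67% of all genes. The median difference of the 81 was -0.12, close to the -0.13 of all genes, and 19 genes were higher (23.5%) and 13 lower (16%) without overlap between the ages, beside 17.1% and 22.2% of all genes. Of the 81, 9 were well above background on 0 arrays at 12 months and passed the filter through the 3-month arrays. With the 75th percentile shift 2 genes of the list fell, as 5% of all genes did, and 3 fell without 12-month replicate 2, as 4.47% of all genes did.

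**Figure D3:**
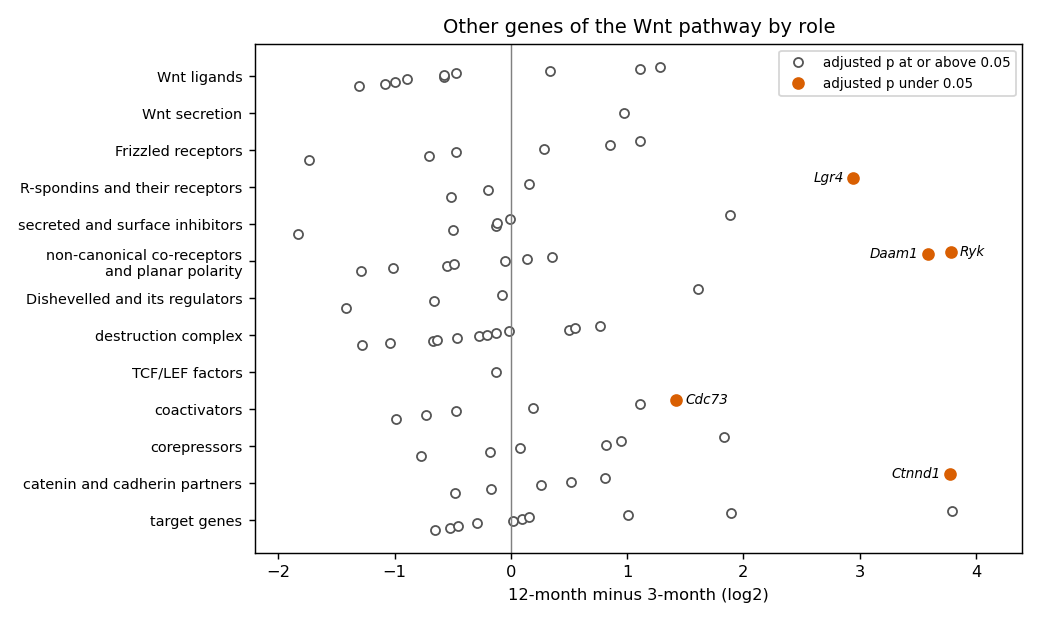
Difference between 12 and 3 months on the log2 scale (horizontal axis) for the 81 other Wnt pathway genes tested, grouped by role (vertical axis), with 1 point for each gene and filled orange points for an adjusted limma p under 0.05. The 5 filled points lie between 1.42 and 3.78, and no filled point lies below 0.

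The genes that rose belonged to different arms of the pathway. *Lgr4* codes for a receptor of R-spondins, secreted proteins that enhance Wnt signals by keeping Frizzled receptors at the cell surface. Its log2 signal was 8.55, 7.59 and 7.64 at 3 months and 10.40, 11.30 and 10.90 at 12 months. The lowest 12-month array was above the highest 3-month array, and the difference was 2.94 (limma SE 0.37, adjusted p 0.0106), a 7.70-fold rise. It passed in 14 of 19 other settings and in each of the fits that left out 1 array. The other settings, here and for the genes below, include some that called 0 genes on the whole array. *Rspo1*, the gene of an R-spondin, named after its values were seen, differed by -0.20 (limma SE 0.42, adjusted p 0.764).

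*Ctnnd1* codes for p120 catenin, which binds cadherins at the cell membrane and is not beta-catenin. Its signal was 5.28, 5.58 and 4.12 at 3 months and 9.22, 7.73 and 9.36 at 12 months, above background on all arrays, and the rise was 3.77 (limma SE 0.56, adjusted p 0.0162). *Daam1* codes for a formin that binds Dishevelled in the planar polarity branch, which does not use beta-catenin. Its signal was 4.89, 4.70 and 3.35 at 3 months and 7.94, 7.09 and 8.68 at 12 months, a rise of 3.59 (limma SE 0.55, adjusted p 0.0177). Both started from low signals at 3 months, and with normexp, whose offset compresses dim differences, their rises were 2.36 and 1.83. Each passed in 11 of 19 other settings.

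*Cdc73* codes for parafibromin, a subunit of the PAF1 transcription complex that can bind beta-catenin. Its signal was 10.53, 10.36 and 10.34 at 3 months and 11.44, 12.23 and 11.84 at 12 months, a rise of 1.42 (limma SE 0.27, adjusted p 0.0302). The rise passed in 9 of 19 other settings and in 1 of the fits that left out an array. *Ryk*, a Wnt receptor related to tyrosine kinases, had values of 3.38, 3.38 and 2.96 at 3 months, where 1 array was above background, and of 7.35, 5.04 and 8.67 at 12 months, where 2 arrays were. Its rise of 3.78 (limma SE 0.85, adjusted p 0.0440) therefore rests on signals near background at 3 months, and it passed in 5 of 18 other settings.

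*Csnk1a1*, chosen after its values were seen, codes for casein kinase 1 alpha, the enzyme that adds the first phosphate to beta-catenin before GSK3-beta acts. Its probe was well above background on 0 of 3 arrays at 3 months (2.75, 2.92 and 2.87) and on 2 of 3 arrays at 12 months (6.90, 4.64 and 8.04), so it did not enter the test. The 3-month side was set to the lowest signal well above background on each array, or the probe's own signal where higher. The mean of all 3 arrays at 12 months was 11.3-fold above it. Since 1 of those 12-month arrays was itself not above background, this fold is not a strict lower bound. Among the 12 other destruction complex genes tested, 0 passed the adjusted threshold, 3 were higher and 9 lower by sign, and 1, *Csnk1e*, named after its values were seen, was lower at the threshold of the study with a difference of -1.28 (limma adjusted p 0.150). Of all genes 9.67% were lower at that threshold, and 6330 of 11201 were lower by sign.

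**Figure D4:**
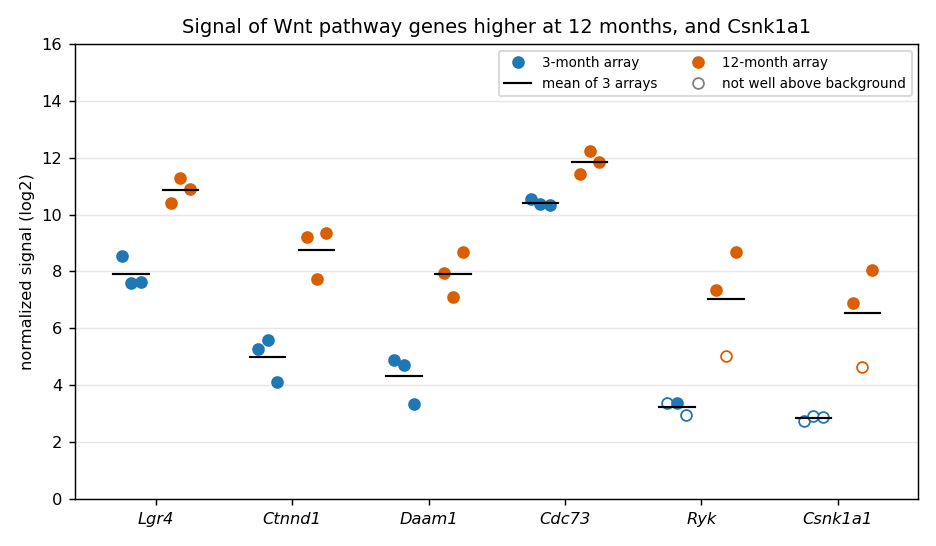
Normalised log2 signal (vertical axis) of the 5 Wnt pathway genes that rose and of *Csnk1a1* (horizontal axis) on each array, at 3 months (blue) and at 12 months (orange), with the mean of 3 arrays as a line and open points where the probe was not well above background. The 5 genes were drawn because they had an adjusted limma p under 0.05 and ages that did not overlap. In *Lgr4*, *Ctnnd1*, *Daam1* and *Cdc73* all points are filled, whereas *Ryk* and *Csnk1a1* have open points at both ages.

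Of the other Wnt ligands 10 were tested, 3 higher and 7 lower by sign with a median of -0.57, and 0 passed the adjusted threshold. *Wnt10b*, counted as lower, was above background on 3 arrays at 3 months and on 0 at 12 months. The largest positive differences were those of *Wnt10a*, at 1.29 (limma SE 0.36, adjusted p 0.0686), and of *Wnt3*, a canonical ligand that the study's own gene tables also list, at 1.11 (limma SE 0.30, adjusted p 0.0656). *Wnt3* had values of 10.22, 10.99 and 10.93 at 3 months and 11.75, 12.10 and 11.64 at 12 months, without overlap. *Wnt8b* differed by -1.31 (limma SE 0.41, adjusted p 0.0867) and *Wnt1* by -1.09 (limma SE 0.45, adjusted p 0.147), the latter with overlapping ages. These 4 ligands, 2 higher and 2 lower, met the threshold of the study and missed the adjusted one. Of all genes 9.8% were higher and 9.67% lower at the threshold of the study, and by sign 4871 of 11201 were higher and 6330 lower. *Wls*, which carries Wnt proteins to the cell surface and was named after its values were seen, differed by 0.97 (limma SE 0.24, adjusted p 0.0535) without overlap.

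Of the Frizzled receptors 6 were tested, 3 with each sign. *Fzd6* differed by 1.11 (limma SE 0.35, adjusted p 0.0871), with all 12-month arrays above the 3-month arrays, and *Fzd2* by -1.74 (limma SE 0.58, adjusted p 0.0994), with overlap. *Fzd1* and *Fzd8* differed by 0.28 and 0.85 with limma adjusted p-values of 0.766 and 0.220. *Fzd5* and *Fzd9* were well above background on all 3 arrays at 3 months and on 0 at 12 months. Among the TCF and LEF factors *Tcf7l1*, mostly known as a repressor of Wnt targets, had nearly equal signal at the ages, 14.95 ± 0.18 at 3 months and 14.82 ± 0.16 at 12 months (SD, n = 3), a difference of -0.13 (limma SE 0.23, 95% confidence interval -0.68 to 0.42, adjusted p 0.718).

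Transcripts known as targets of the pathway in other tissues were found with both signs. Of 10 tested, 6 were higher and 4 lower by sign, with a median of 0.06, and 0 passed the adjusted threshold. *Ccnd1*, the gene of cyclin D1, also named after its values were seen, differed by 0.02 (limma SE 0.54, adjusted p 0.985). *Myc*, chosen in the same way, had values of 4.63, 6.86 and 2.69 at 3 months, where 2 arrays were well above background, and 9.24, 7.91 and 8.40 at 12 months, a difference of 3.79 (limma SE 0.99, adjusted p 0.0620). It met the threshold of the study, as did *Fgf9*, which was above background on 1 array at 3 months and 2 at 12 months and differed by 1.89 (limma SE 0.53, adjusted p 0.0716). At that threshold 9.8% of all genes were higher. Corepressors (6 tested, median 0.45), coactivators (6 tested, median -0.14) and the secreted and surface inhibitors (6 tested, median -0.12) held 0, 1 and 0 genes that passed the adjusted threshold. At the adjusted threshold 4.87% of all genes were higher and 2.98% lower. Of the inhibitors, *Dkk2* differed by 1.89 (limma SE 0.50, adjusted p 0.0627) and *Sost* by -1.83 (limma SE 0.54, adjusted p 0.0772), both without overlap and both named after their values were seen.

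Markers of other cells in the islet preparation differed between the ages beside these genes. For comparison, 4.87% of all genes tested were higher and 2.98% lower at the adjusted threshold. By sign 4871 of 11201 were higher and 6330 lower, with a median of -0.13. Of the tested markers of stellate and mesenchymal cells 6 of 6 were higher at 12 months (median 1.46), 1 of them, *Pdgfrb*, past the adjusted threshold (limma adjusted p 0.0453), and the summed signal of 5 markers was 9728 to 17000 at 3 months and 25320 to 64920 at 12 months. Of the nerve and Schwann cell markers 7 of 7 were lower (median -1.23), 2 of them past the threshold. Their summed signal over 6 markers was 4965 to 8429 at 3 months and 2137 to 3140 at 12 months. For beta cell markers the median was 0.53 and 1 of 6 passed the threshold, and for other endocrine markers it was 0.32 and 1 of 7 passed. The medians were 0.10 for acinar, 0.05 for duct, -1.06 for red blood cell, -0.67 for endothelial and -0.03 for immune markers, with 0 genes past the threshold. Some acinar markers varied widely between arrays of an age. The log2 signal of *Ctrb1* was 16.61, 17.07 and 14.02 at 3 months and 17.64, 14.39 and 17.91 at 12 months. *Pnlip* varied little, with 18.52, 18.31 and 18.36 at 3 months and 18.48, 18.48 and 18.43 at 12 months. Both were named after their values were seen. In bulk RNA fewer cells of a type and less RNA per cell cannot be told apart, and the part of these markers in the differences of the Wnt pathway genes was not tested.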

How the data were processed

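Total RNA of islets from male Wistar rats was hybridised to 1-colour Arraystar/Agilent arrays, 3 for each age. The deposited scanner files hold spot intensity from Agilent Feature Extraction 11.0.1.1, background-subtracted and not normalized between arrays. A second deposited file, made by the authors, gives log2 values of 12145 probes. Age came from the labels. One 12-month array carries no number there and is called replicate 3 only as a name.

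Background-subtracted intensity was put on the log2 scale, averaged per probe over spots without an outlier mark, and quantile normalized over the 24684 probes. No spot was saturated (0). A probe counted as well above background where at least 0.5 of its spots were so marked, and 17944 probes for which this held on at least 3 of the 6 arrays were kept. Some value was missing for 70 of them, and 3 could not be tested. Two-sided tests between the ages were made without a block in limma 3.58.1 (functions lmFit and eBayes; R 4.3.3), adjusted by the Benjamini-Hochberg method over the 17941 probes tested. The step was first tested on simulated data. For these arrays a paired t-test is given in the supplement of the study and Student's test in its methods, whereas counts at the study's threshold here rest on unpaired limma p-values. Arrays have no read depth, and their number limits the precision. The exact permutation tests ran over all 20 arrangements of the arrays.

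Of 15321 mRNA probes 14274 matched a gene name through RefSeq accessions. For a gene with several probes the one with the highest mean was used. The array design uses another build than the promoter table, so no probe coordinates are given.

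The 10 genes, the 125 other pathway genes and the markers of 9 cell types were chosen with earlier results of these data known. By rule, all 10 were named, with the pathway genes past an adjusted p of 0.05 whose ages did not overlap and *Wnt3*, and any tested ligand, Frizzled receptor or TCF/LEF factor could be. The alternatives were a shift to a common 75th percentile, normexp with an offset of 50 on median spot signals, the authors' table, 4 arrays whose descriptions end alike, blocks by replicate number, array weights, robust variances with an intensity trend, other filters, each array left out, plain and paired t-tests, the mean of a gene's probes and another threshold.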

Additional observations from a re-analysis of the deposited data

How the results depend on the processing

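Among the Wnt and beta-catenin genes tested, *Wnt4* changed sign, to -0.065 with array weights, -0.14 with the 75th percentile shift, -0.077 with the 4 arrays whose descriptions end alike and -0.21 with the replicate block of the numbered pairs. With 1 array left out it ran from -0.13 to 0.34, the lowest without 12-month replicate 3. Relative to the median of all genes, *Gsk3b* was at -0.79 here and at -0.56 with the shift. The other 5 kept their sign in every setting in which they could be fitted.

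The count of these genes past an adjusted p of 0.05 and lower at 12 months was 0, and it was 1, *Gsk3b*, with normexp, with array weights and where the adjusted p had only to be under 0.1. At a fold above 2 it was 1 with array weights, 2 with the numbered pairs as a block and from 0 to 2 with 1 array left out (2 without 3-month replicate 3, 1 without 12-month replicate 3). The count of higher genes at a fold above 2 ran from 0 to 1 with 1 array left out, the 1 without 12-month replicate 2. In the main fit 9.8% of all genes were higher and 9.67% lower at the threshold of the study. The shares of all genes at that threshold in the other fits are not given here. Array weights called 16.3% of all genes lower even at the adjusted threshold. The counts at a fold above 2 therefore cannot be set apart from a shift of all genes.

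Of the other pathway genes 5 rose; 8 did with normexp, 8 with the intensity trend and robust variances, 14 with array weights, 13 at the adjusted p of 0.1, and 0 with the replicate block of 3 pairs, the block of the numbered pairs, the 4 arrays, the methods' t-test or the paired t-test. With 1 array left out the count ran from 1 to 6, while the share of all genes called higher ran from 0.911% to 5.72%. None fell, whereas 2 fell with the shift, 2 with no filter, 1 with probes above background on all 6 arrays, 11 with array weights, 4 at an adjusted p under 0.1 and 0 to 3 with 1 array left out, the 3 without 12-month replicate 2. The share of all genes called higher or lower was 13.5% or 16.3% with array weights, 9.93% or 10.3% at the adjusted p of 0.1, 6.69% or 4.93% with the trend and 6.49% or 4.57% with normexp. With the block of the numbered pairs, the 4 arrays or the paired t-test, 0 genes of the whole array were called. The 0 in those settings therefore tells nothing about this list. Of all genes 0.393% were called higher with the block of 3 pairs and 1.3% with the methods' t-test. The array weights stopped before converging. What caused these shifts was not tested.

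The numbers in the labels did not pair the arrays: deviations from the age means correlated by -0.01 and -0.31 for the numbered pairs and by -0.26 for the pair left over. A block by slide or scan was not run because each age lies in 1 scan. Background was higher at 12 months, which limits the reading of dim probes, among them *Apc*, *Ctnnb1*, *Lef1*, *Wnt5a* and *Ryk*.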
